A study of Homo sapiens with 20 samples.

Results

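FRA1 occupancy was compared between A375 and 1205Lu cells, both human melanoma cell lines, over all consensus peaks of the Cut&Run libraries made with an antibody against FRA1. Of the 20 samples of the series, 8 were Cut&Run libraries, and 6 of these, 3 from each cell line, carried the FRA1 antibody. The other 2 carried IgG, 1 in each cell line, and served as the background. The members were the 54563 consensus peaks of the deposited table, of which 53300 had enough reads to be tested. The Cut&Run labels name no siRNA or other treatment. Baseline expression came from RNA-seq of the same lines after non-targeting siRNA (si-NT), 3 samples each, and the response to FRA1 came from 3 samples each after siRNAs against FRA1 (si-FRA1). Nothing in the labels says that replicates were separate cultures, so p-values measure the spread between these libraries, which may be technical.

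FRA1, the product of FOSL1, is a FOS family protein that pairs with a JUN protein to form the transcription factor AP-1 and binds a short palindromic site. AP-1 is known to act mostly at enhancers, often beside TEAD factors, and in melanoma it is associated with an invasive, dedifferentiated state in which the melanocyte regulator MITF is low. In Cut&Run an antibody brings a nuclease to the bound protein, so that reads pile up where the protein, or a complex that holds it, sits on DNA.

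The AP-1 site was searched as TGACTCA and as its reverse complement TGAGTCA. The windows below were taken from peaks described further on that hold the site, to show it where the cell lines differed, with 1 window from a peak that was well above IgG in each. Each is 29 bases of the plus strand of GRCh38, 5′ to 3′, with the AP-1 site in capitals. The site nearest the peak centre is shown. Those of PFKP, RCAN1 and AXL lay within 100 bp of the centre, the window of the AP-1 shares below. The other sites lay 108 to 352 bp from it, outside that window. The first 4 peaks were higher in A375, the next 4 were higher in 1205Lu, and the last, at the AXL promoter, was strong in both lines.
PTPRM intron (chr18:7579358-7579386): gaaagtaacagTGACTCAgagaccctgcc
NETO1, intergenic (chr18:73102141-73102169): tattgacacagTGACTCAttttccatgtc
GRIK2 intron (chr6:101539703-101539731): ttctacatggcTGAGTCAtaaacacaatt
KRT7 promoter (chr12:52230459-52230487): ttttttctttaTGAGTCAgaggacgtgtt
CDKN2B, intergenic (chr9:22052233-22052261): gcttcaatgtcTGACTCAttaagtgttct
PFKP promoter (chr10:3107431-3107459): cattttcataaTGACTCAgaagttggacg
TRPM8 promoter (chr2:233931771-233931799): catacgcatcaTGAGTCAttctgacaaag
RCAN1 promoter (chr21:34559535-34559563): tttcggtggatTGAGTCAgccaaagtatc
AXL promoter (chr19:41225891-41225919): gtccctctatcTGACTCAgggcgtgcccc

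The 2 cell lines differed first in the reads in peaks of the FRA1 libraries set beside those of IgG. The A375 FRA1 libraries held 3354095, 5316527 and 4256577 reads in peaks, and the IgG library of that line held 383994. The 1205Lu FRA1 libraries held 583750, 897407 and 781542 reads in peaks, and the IgG library held 314569. Against IgG, the median FRA1 total was thus 11.1 times as large in A375 and 2.48 times as large in 1205Lu. These totals were not corrected for the sequencing depth of each library, and its part in the ratios was not tested. The study called more FRA1 peaks in A375 than in 1205Lu, and the ratios are taken over the joined set. The study describes A375 as FRA1 high and 1205Lu as FRA1 intermediate. These data hold FOSL1 mRNA and no FRA1 protein, so the part of FRA1 amount was not tested. FOSL1 mRNA was 402, 415 and 399 CPM (read counts scaled to equal library size by TMM) in A375 si-NT samples. In 1205Lu si-NT samples it was 507, 497 and 491 CPM. The log2 fold was -0.30 ± 0.0214 (SE, adjusted p = 1.3e-10) and stayed under the fold limit. Counts per peak were ranked alike within A375 (Spearman's rho 0.962 to 0.968 across peaks) and less alike within 1205Lu (0.785 to 0.849), and rho was 0.244 to 0.296 between the lines. In 1205Lu cells, replicates 2 and 3 could not be told apart from sampling noise over the 8327 peaks with 50 or more reads in the pair (chi-square per degree of freedom 1.01, p = 0.33), while the other pairs of that line gave 1.49 and 1.6. These 2 libraries were counted as 1 sample, which leaves n = 2 for 1205Lu. Over the 28073 peaks with 10 or more reads in the pair the value was 1.08, above the sampling noise.

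Where was FRA1 signal relatively stronger in either line? With libraries scaled by TMM, which compares how each library spreads its reads over the peaks, 14008 peaks were higher in A375 (26.3% of 53300) and 10975 were higher in 1205Lu (20.6%). A peak was called when edgeR's quasi-likelihood test gave an adjusted p under 0.05 and its log2 fold, always A375 over 1205Lu, was beyond 1 in size. The median log2 fold of all peaks was 0.24, and folds are read relative to it. In all, 46.9% of tested peaks were called, and 56.1% of the calls were higher in A375, against 44.2% with DESeq2 and its size factors (9496 and 11996 peaks), 62.8% with total counts, 92.9% without scaling and 87.4% with libraries scaled on peaks near background. The median peak of the A375-higher class held 65, 105 and 83 reads in the A375 FRA1 libraries and 8 with IgG, and 4, 3 and 3 reads in the 1205Lu FRA1 libraries and 4 with IgG. In 13771 of these 14008 peaks the CPM of each A375 library lay above that of each 1205Lu library. In 10625 of the 10975 peaks of the other class each A375 library lay below. Over all 53300 tested peaks, called or not, 19186 lay above and 13982 below in this way. The calls were made from the same values, so this separation is no separate support for them.

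The scale between the lines decided how many peaks counted as higher in 1205Lu. Without scaling, the median log2 fold was 2.92, 45679 peaks were higher in A375 (85.7%) and 3513 in 1205Lu (6.59%), or 92.3% in either direction. With libraries scaled on peaks near background the median was 1.79, and the counts were 36320 (68.1%) and 5238 (9.83%), or 78.0% in either direction. The 14008 peaks higher in A375 were called in that direction under both of these scales. Both scales move folds towards A375, so this could hardly have come out otherwise and is no test of these calls. Of the 10975 higher in 1205Lu, 3513 were called so without scaling, 3956 were not called and 3506 were called higher in A375. The 3513 peaks, called with and without scaling, are given separately here. Their median log2 fold with TMM was -5.14, with 16, 30 and 26 reads in the 1205Lu FRA1 libraries and 4 with IgG, against 4, 4 and 4 reads in the A375 FRA1 libraries and 3 with IgG.

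**Figure D1:**
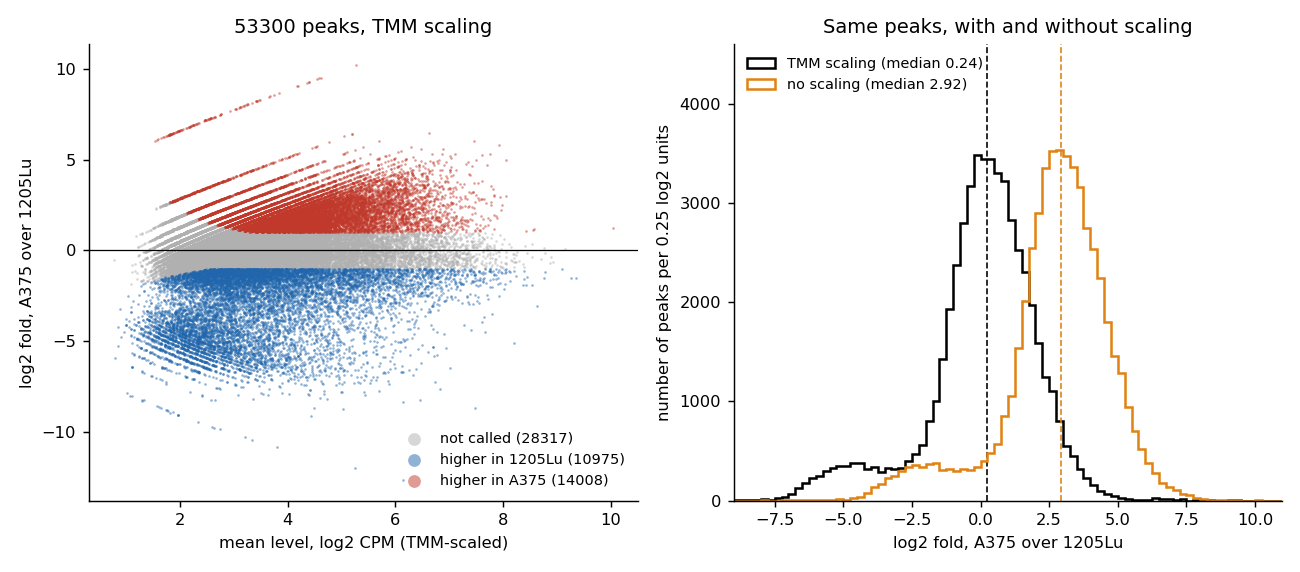
Left, log2 fold of each tested peak (A375 over 1205Lu) against its mean level in log2 CPM, coloured by call, with 14008 peaks higher in A375 and 10975 higher in 1205Lu. Right, number of peaks by log2 fold with TMM scaling (black, median 0.24) and with no scaling (orange, median 2.92, dashed lines), where most peaks move to the A375 side and a shoulder of 1205Lu peaks stays below 0.

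A peak was taken to stand over IgG in a line when all of its FRA1 libraries held 10 or more reads and 4 or more reads for each IgG read, with 1 added to the IgG count. In A375 cells 31293 of the tested peaks did so (58.7%), and in 1205Lu cells 3871 did (7.26%), with 2453 peaks in both. In the A375-higher class 12273 peaks (87.6%) stood over IgG in A375. In the 1205Lu-higher class 2826 (25.7%) stood over IgG in 1205Lu, and among the 3513 called with and without scaling 1230 did (35.0%). The median tested peak held 5 or 6 reads in the 1205Lu FRA1 libraries and 31 to 48 in those of A375, so the limit lay above the median peak of 1205Lu. All intervals given here cover counting error only.

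The peaks with the largest folds were strong in 1 line and nearly empty in the other. Each is named by its nearest protein-coding gene, and 8563 peaks on the A375 side and 292 on the 1205Lu side met the conditions of which these are the most extreme. The largest was in an intron of RBBP8 (chr18:22843945-22844932), which encodes a DNA end resection factor. It held 163, 280 and 207 reads in the A375 FRA1 libraries and 0, 0 and 0 in the 1205Lu FRA1 libraries, with 9 and 7 reads of IgG. This is at least 33.6-fold higher in A375 on the TMM scale, as for the bounds below, taking 3 counts over the 1205Lu group as the floor. IgG reads fell there in both lines.

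The other 7 peaks of that rule also had 0 reads in each 1205Lu FRA1 library. The peak in an intron of PTPRM, a receptor phosphatase of cell contacts (chr18:7578969-7579992), held 92, 171 and 129 reads in A375 and was at least 20.3-fold higher. PTPRM mRNA was also higher, at 238 CPM in A375 and 7.59 CPM in 1205Lu cells (log2 fold 4.98 ± 0.0472, adjusted p = 1.1e-24). The peak in an intron of GRIK2, a kainate receptor subunit (chr6:101539481-101540171), held 86, 133 and 117 reads in A375 and was at least 17.4-fold higher, while GRIK2 mRNA was lower in A375, at 2.47 against 24.5 CPM. The same split was seen 73945 bases from FOXC1, a forkhead factor, with 88, 154 and 98 reads in A375 and mRNA at 15.6 against 49.4 CPM. The peaks nearest MARCKS, NETO1, MYL12B and PCED1B were at least 20.4-fold, 19.7-fold, 16.9-fold and 14.8-fold higher, and the mRNA of each was called higher in A375. They lay 575685, 233653, 66706 and 153863 bases from a start, and whether a peak acts on its nearest gene was not tested. The stretches of 10 Mb around PTPRM and MYL12B, and around PCED1B, also held more IgG reads in peaks in A375 (log2 ratio of IgG shares 1.77 and 1.41). The part of this in the folds was not tested. For GRIK2 and MARCKS that ratio was 0.04.

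In the other direction, the peak with the largest fold lay 42644 bases from a start of CDKN2B, an inhibitor of the G1 kinases (chr9:22051949-22053044). It held 91, 142 and 113 reads in the 1205Lu FRA1 libraries and 0 in each A375 FRA1 library. On the TMM scale it was at least 743-fold higher in 1205Lu, a bound that would be smaller without scaling. The A375 IgG library also had 0 reads there, so a missing locus and missing FRA1 cannot be told apart. It was 1 of 4 consensus peaks with 0 reads in all 4 A375 libraries, and the peaks on either side of it had reads. CDKN2B mRNA was too low to be tested.

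The remaining 1205Lu peaks were not empty in A375. The peak in an intron of NPR3, the clearance receptor of natriuretic peptides (chr5:32738339-32739383), held 102, 263 and 201 reads in 1205Lu and 6, 3 and 1 in A375, a log2 fold of -8.34 ± 0.361. The peak 34910 bases from FZD1, a Wnt receptor (chr7:91228198-91229523), held 72, 157 and 148 reads against 2, 6 and 2, a log2 fold of -7.79 ± 0.32. FZD1 mRNA was 288 CPM in 1205Lu and 14.5 CPM in A375. The promoter peak of PFKP, a phosphofructokinase (chr10:3107166-3107801), held 63, 95 and 82 reads against 0, 2 and 3, while its mRNA was under the fold limit, at 200.0 and 258 CPM. Those nearest KLF4, ATXN10, FAM135B and GFRA2 had log2 folds of -8.21, -7.93, -8.74 and -8.23 and lay 531854, 51386, 23366 and 226293 bases from a start. Expression of the nearest gene was called in the same direction for FAM135B, GFRA2 and FZD1 of the 8.

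**Figure D2:**
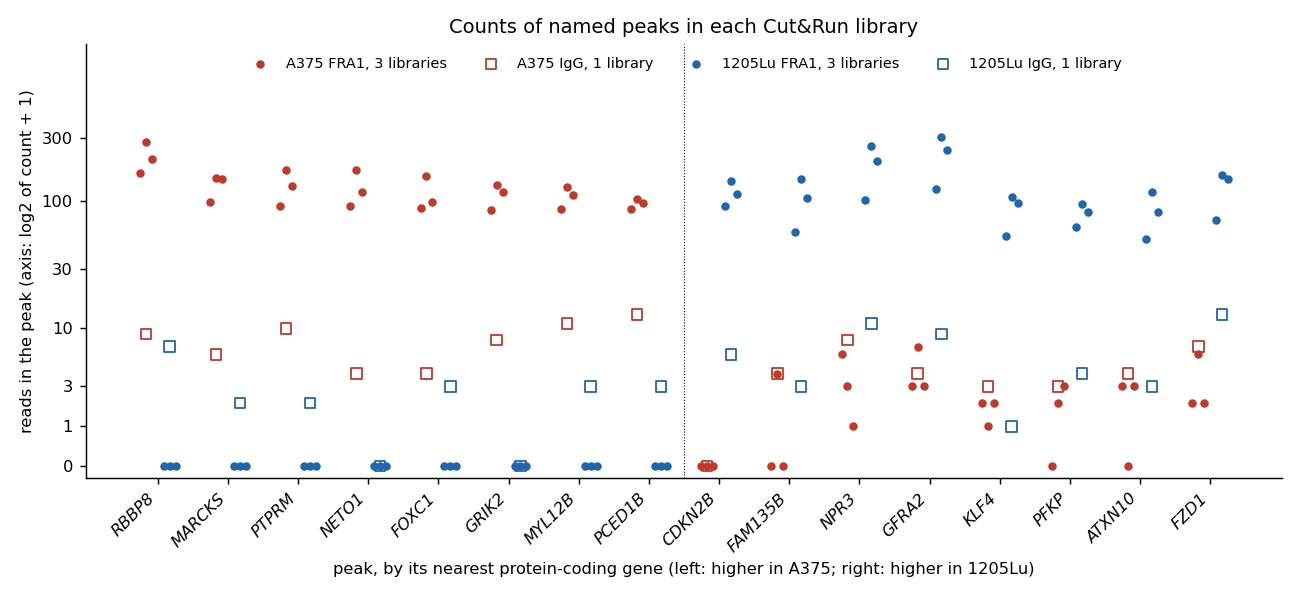
Reads in 16 peaks (x axis, nearest gene) in each FRA1 library (filled circles) and each IgG library (open squares) of A375 (red) and 1205Lu (blue), on a log2 axis of count plus 1. The 8 peaks on the left have 0 reads in each 1205Lu FRA1 library, and of the 8 on the right CDKN2B has 0 reads in each A375 library, IgG included.

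The classes differed in where their peaks lay. A promoter peak held the start of a protein-coding transcript or had its nearest edge within 3 kb of one. Wider peaks meet this limit more easily. Distances to a start were also taken from the nearest edge. Of the A375-higher peaks, 8.4% were promoter peaks (95% Wilson interval 7.95 to 8.87), against 23.2% (22.7 to 23.7) of those not called and 20.9% (20.2 to 21.7) of those higher in 1205Lu. Among the 3513 peaks called higher in 1205Lu with and without scaling the share was 7.63% (6.8 to 8.55). The median distance to a start was 52097.5 bases for A375-higher peaks, 40196 bases for those 3513 and 23867 bases for peaks not called. Introns held 36.5% of the A375-higher peaks and 45.7% of those 3513. The promoter share depended on the scale, since the 45679 peaks higher in A375 without scaling had 19.6% in promoters. The median width was 879 bp for A375-higher peaks, 680 bp for peaks not called and 531 bp for the 3513.

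The AP-1 site lay within 100 bp of the centre in 31.5% of A375-higher peaks (30.8 to 32.3), 30.2% of peaks not called (29.7 to 30.8) and 23.5% of 1205Lu-higher peaks (22.7 to 24.3). In windows of the same length 2000 bp away it lay in 3.43%. The share was 14.8% (13.7 to 16.0) among the 3513 peaks called higher in 1205Lu with and without scaling, and was 18.6% (16.6 to 20.9) in the 1240 of these that stood over IgG in either line. Over the same limit it was 31.8% in A375-higher peaks, 31.9% in all 1205Lu-higher peaks and 35.2% in peaks not called. Outside promoters the shares were 31.9% in A375-higher peaks, 34.6% in peaks not called and 15.2% in the 3513 class, and in promoters they were 27.1% (24.7 to 29.7), 15.7% (14.8 to 16.6) and 10.1% (7.02 to 14.3). AP-1 was thus more frequent in A375-higher peaks than in peaks not called at promoters, and less frequent outside them. Among the strongest 1000 peaks of each line the shares were 24.7% (22.1 to 27.5) in A375 and 28.9% (26.2 to 31.8) in 1205Lu. Of these 1000, 332 were common to both lines, 493 of the A375 set were called higher in A375 and 687 of the 1205Lu set higher in 1205Lu.

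TEAD factors, the DNA-binding partners of YAP, recognise GGAATGT, which lay in 7.83% of A375-higher peaks (7.4 to 8.29), 5.28% of peaks not called (5.02 to 5.54) and 3.98% of 1205Lu-higher peaks (3.63 to 4.36), with 2.87% in the distant windows and 5.99% in the 45679 peaks higher in A375 without scaling. Outside promoters the order was the same, at 7.96%, 6.05% and 4.34%. The ETS motif, CCGGAAA or CCGGAAG, lay in 1.52%, 3.28% and 3.23%, and in promoters in 4.0%, 8.76% and 8.09%. The cyclic AMP response element TGACGTCA, bound by ATF and CREB proteins and by some FOS and JUN pairs, was rare, at 0.171% (0.115 to 0.255) of A375-higher peaks and 0.72% (0.578 to 0.896) of 1205Lu-higher peaks. The RUNX motif TGTGGTT lay in 5.75% and 5.03%. Motifs were read on both strands as exact letters, and a match describes the sequence and no binding.

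**Figure D3:**
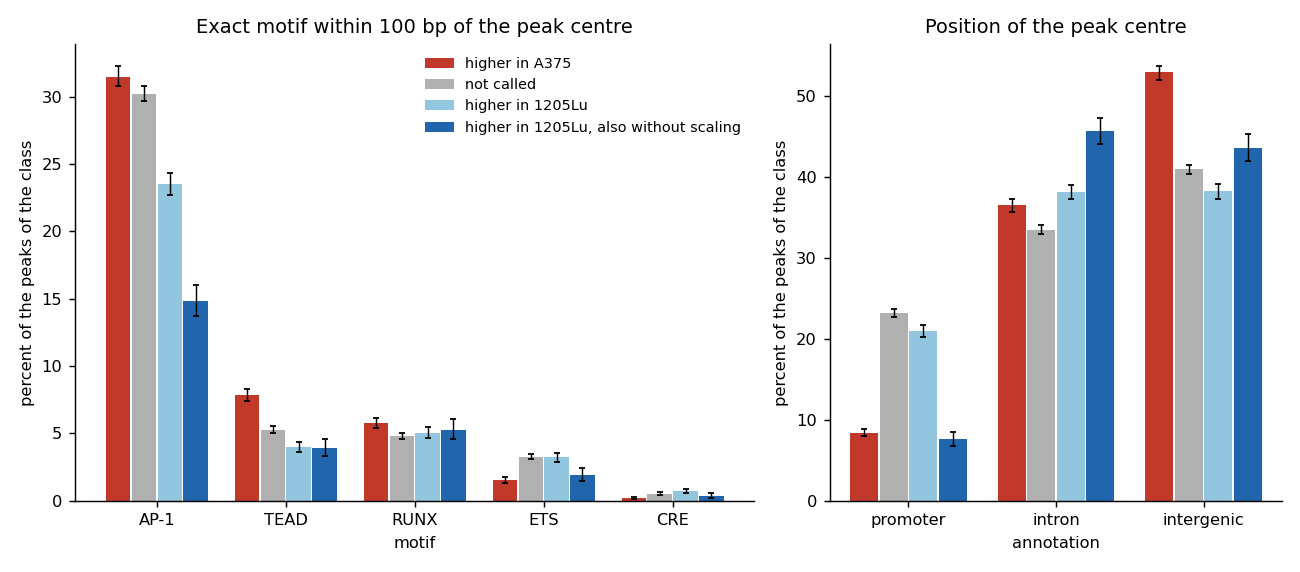
Percent of peaks in each class (A375-higher red, not called grey, 1205Lu-higher light blue, the 3513 of these called without scaling too dark blue) that hold an exact motif within 100 bp of the centre (left) or lie in a promoter, intron or intergenic stretch (right), with 95% Wilson intervals as bars. AP-1 is 31.5% in the red and 14.8% in the dark blue bars, and TEAD is 7.83% in the red and 5.28% in the grey bars.

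Was FRA1 at a promoter higher in the line that expressed the gene more? At baseline, 40.2% of all 18050 genes tested were called, 18.9% higher in A375 and 21.3% higher in 1205Lu. Of 14288 protein-coding genes, 2628 were expressed higher in A375 (18.4%) and 2884 higher in 1205Lu (20.2%), or 38.6% in either direction. A tested promoter peak was present for 7819 of these genes, taking the strongest where a gene had several. The promoter peak was higher in A375 for 741 genes (9.48%) and higher in 1205Lu for 1809 (23.1%), or 32.6% in either direction. Of the 741, 363 (49.0%) were expressed higher in A375 and 82 (11.1%) higher in 1205Lu, with a median expression log2 fold of 0.96. Of the 1809, 90 (4.98%) were expressed higher in A375 and 570 (31.5%) higher in 1205Lu, with a median of -0.55. For the 135 genes whose promoter peak was higher in 1205Lu with and without scaling, the shares were 6.67% and 57.8% and the median -1.44. Among all 7819 genes they were 18.0% and 15.8%, with a median of 0.08. Across the 7819 genes the log2 folds of peak and expression had r = 0.428 and rho = 0.408, and r lay between 0.12 and 0.543 within single chromosomes. Genes are not independent replicates, and these correlations are descriptions.

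**Figure D4:**
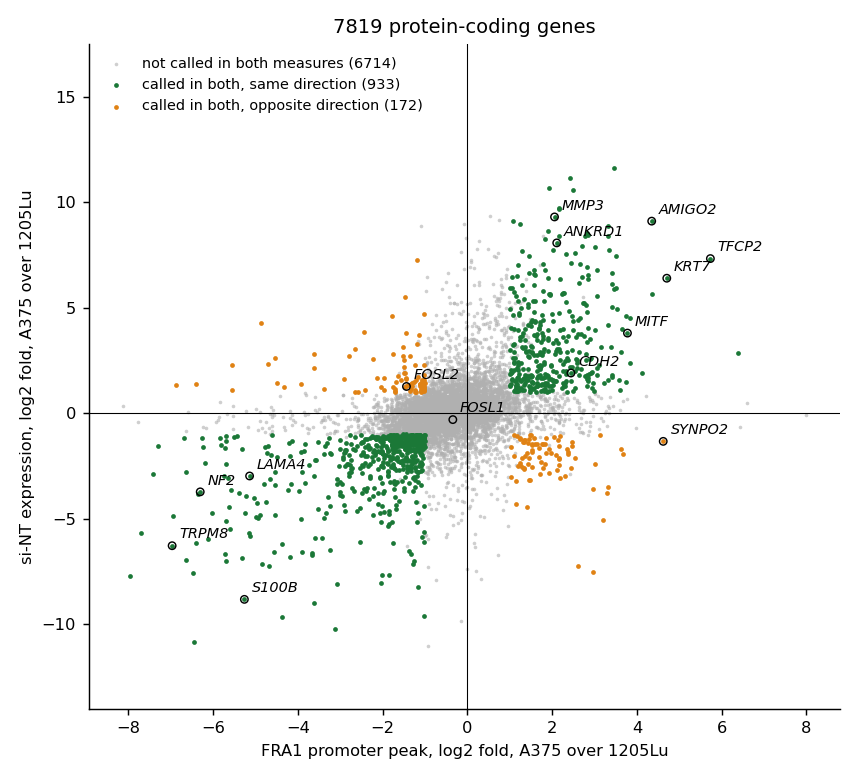
Log2 fold of si-NT expression against log2 fold of the FRA1 promoter peak (both A375 over 1205Lu) for 7819 protein-coding genes, 1 point each. The 933 genes called in both measures in the same direction are green and the 172 called in opposite directions are orange, and the circled genes are described in the text. The promoter peaks of 135 of the 1809 genes higher in 1205Lu were also called so without scaling, among them those of S100B, NF2, LAMA4 and TRPM8, while that of FOSL2 turned.

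Among genes called in both measures, those with the largest promoter folds included several that were close to silent in 1 line. The promoter peak of TFCP2, a transcription factor, held 95, 141 and 140 reads in A375 and 0, 0 and 1 in 1205Lu, a CPM ratio of 58.3 (counting interval 10.4 to 2310), and its mRNA was 26.7 ± 1.29 CPM against 0.163 ± 0.0236 (SD, n = 3). KRT7, a keratin of simple epithelia, held 395, 652 and 512 reads against 3, 4 and 2 (log2 fold 4.7 ± 0.344), with mRNA at 4.94 ± 0.448 and 0.051 ± 0.0449 CPM. AMIGO2, an adhesion protein, held 212, 349 and 254 reads against 2, 2 and 2 (4.35 ± 0.372), with mRNA at 76.5 ± 1.02 and 0.121 ± 0.133 CPM. These 3 genes had no overlap between the cell lines in either assay, which follows largely from choosing them by their calls in both. PCED1B shared the AMIGO2 peak, and its mRNA was 3.6 against 0.0597 CPM. PRKG2, a cyclic GMP-dependent kinase, held 10, 21 and 14 reads against 0 in each 1205Lu FRA1 library, at least 2.33-fold higher, a call that was lost with DESeq2. The stretches of TFCP2 and KRT7 had an IgG log2 ratio of 0.64 and that of AMIGO2 one of 1.41. SYNPO2, an actin-bundling protein, went the other way, with 42, 75 and 58 reads against 1, 0 and 0 at its promoter and mRNA lower in A375 (0.578 ± 0.102 against 1.46 ± 0.19 CPM).

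On the 1205Lu side, TRPM8, a cold-sensing channel, held 87, 135 and 121 reads in the 1205Lu FRA1 libraries and 5, 8 and 4 in A375 (log2 fold -6.97 ± 0.249), and its mRNA was 21.6 ± 1.66 CPM against 0.271 ± 0.046 in A375. RCAN1, an inhibitor of calcineurin, held 40, 86 and 81 reads against 3, 3 and 4 (-6.96 ± 0.325), with mRNA at 467 ± 2.67 and 15.9 ± 0.749 CPM. ST3GAL5, the GM3 ganglioside synthase, held 42, 84 and 76 reads against 4, 2 and 1 (-7.41 ± 0.345), with mRNA at 174 ± 2.48 and 23.4 ± 1.24 CPM. These 3 genes were higher in 1205Lu in both assays with no overlap between libraries, which again follows largely from the choice. The promoter peaks of FAM135B, MRGPRX3 and CALU, a calcium-binding protein of the secretory pathway, had log2 folds of -7.97, -7.72 and -7.31, and their mRNA was also called higher in 1205Lu. The IgG log2 ratio of the stretch was -1.11 at TRPM8, -0.29 at RCAN1 and -0.32 at ST3GAL5. Since these genes had to be called in expression, 296 of the 741 genes with an A375-higher promoter peak and 48 of the 135 with a peak higher in 1205Lu with and without scaling could not be among them.

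Lists of melanoma and AP-1 genes, with constitutive genes and markers of other cell types for comparison, held 168 genes, of which 46 had a called promoter peak, 13 higher in A375 and 33 higher in 1205Lu. These were 11.1% and 28.2% of the 117 list genes with a tested promoter peak, beside 9.48% and 23.1% of all promoter peaks. Expression was called in the same direction for 29 of the 46, in the opposite direction for 1 and not called for 16. Of all 2550 genes with a called promoter peak, 933 were called in the same direction and 172 in the opposite one. Of the 33, 3 stayed higher in 1205Lu without scaling (S100B, NF2 and LAMA4), 4 were not called and 26 turned to higher in A375, as the median peak did. The log2 fold without scaling is therefore given beside each named gene that turned. Of S100B, NF2 and LAMA4, only NF2 stood over IgG in 1205Lu. The promoter peaks of CD44, FOS, JUN, FOSL2, SPRY2, TIMP1, PLAT, FSCN1 and GAPDH, called higher in 1205Lu with TMM, did not stand over IgG there. Those of AXL and ITGB5 did. The 13 on the A375 side were called without scaling too, a setting that moves folds towards A375.

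Among 18 melanocyte lineage genes, 11 were expressed enough to be tested, 3 higher in A375 and 4 higher in 1205Lu. MITF, the melanocyte regulator, had 249, 424 and 333 reads at a promoter in A375 and 5, 2 and 4 in 1205Lu (log2 fold 3.78 ± 0.332, adjusted p = 7.3e-10). MITF mRNA was 51.0 ± 2.19 CPM in A375 and 3.65 ± 0.243 CPM in 1205Lu cells (3.8 ± 0.0801, adjusted p = 2.9e-19). S100B, a calcium-binding protein of melanocytes and glia, showed the reverse, with 2, 2 and 1 reads in A375 and 8, 15 and 10 in 1205Lu (-5.26 ± 0.607) and mRNA at 0.97 ± 0.142 and 439 ± 8.53 CPM. The 1205Lu IgG library held 4 reads at that peak, which did not stand over IgG there. RAB27A, which tethers melanosomes, was at -3.15 ± 0.377 at its promoter and -0.41 without scaling, where the call was lost, and its mRNA was at -0.96 ± 0.133, under the fold limit. Its promoter peak, with 13, 17 and 18 reads against 5 of IgG in 1205Lu, did not stand over IgG there. SOX10, the neural crest factor that defines the lineage, was expressed in both lines, at 42.4 to 43.4 CPM in A375 and 927 to 956 CPM in 1205Lu, while the pigment genes PMEL, MLANA and TYR were at 1.01 CPM or less in each sample. Markers of blood, endothelial and epithelial cells (PTPRC, CD3E, CD79A, PECAM1, EPCAM, KRT5 and KRT14) were at 0.971 CPM or less in each si-NT sample. A promoter peak of PTPRC was nonetheless higher in A375, with 36, 57 and 40 reads against 0, 1 and 3.

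Of 15 genes of the dedifferentiated state, 12 had a tested promoter peak, 3 higher in A375 and 3 higher in 1205Lu. AXL, a receptor tyrosine kinase, had 592, 837 and 687 reads in A375 and 155, 316 and 242 in 1205Lu, against 18 and 6 reads of IgG. Its log2 fold was -1.04 ± 0.209 with TMM and 1.69 without scaling. The TMM call was lost without replicate 2 of 1205Lu (-0.9) and without replicate 1 or replicate 2 of A375 (-1.21 and -1.0), and with total counts (-0.9). AXL mRNA was 699 ± 6.57 and 513 ± 8.1 CPM (0.45 ± 0.0183). CD44, the hyaluronan receptor, was higher in 1205Lu in both (-1.62 ± 0.193 at the promoter, with 1.15 without scaling, and -2.66 ± 0.013 in expression). WNT5A, IL6 and PDGFRB were higher in A375 in both, with promoter log2 folds of 1.74 ± 0.491, 1.65 ± 0.265 and 1.31 ± 0.277 and expression log2 folds of 1.34, 1.76 and 1.64. IL6 mRNA was near the floor, at 0.465 to 1.23 CPM in A375 and 0.205 to 0.32 CPM in 1205Lu (SE of the log2 fold 0.5). The promoter calls of PDGFRB and WNT5A were lost over peaks above IgG alone (0.76 and 1.2), and that of WNT5A also with DESeq2 (1.53).

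The AP-1 and related factors had 13 tested promoter peaks, of which 1 was higher in A375 (ATF7, a CREB family factor, 1.58 ± 0.455) and 5 higher in 1205Lu. At the FOSL1 promoter itself, 192, 314 and 273 reads in A375 and 35, 58 and 62 in 1205Lu gave a log2 fold of -0.34 ± 0.2 (adjusted p = 0.15). JUN, a partner of FRA1, had 134, 183 and 149 reads against 46, 61 and 44 (-1.08 ± 0.184, and 1.65 without scaling). FOS had 95, 133 and 108 against 30, 44 and 37 (-1.1 ± 0.197, and 1.65 without scaling). Both were expressed higher in 1205Lu (-1.26 ± 0.0324 for JUN and -2.48 ± 0.172 for FOS). Both promoter calls were lost with total counts (-0.89 and -0.91), that of FOS with an offset for the IgG ratio of its stretch (-0.88), that of JUN without replicate 2 of 1205Lu (-0.95), and that of ATF7 without replicate 3 of 1205Lu (1.04), with DESeq2 (1.4) or with the IgG offset (0.95). FOSL2, the closest relative of FRA1, was the gene with opposite calls, at -1.44 ± 0.178 at its promoter (1.29 without scaling) and 1.27 ± 0.0419 in expression. In raw reads these 3 peaks were higher in each A375 library than in any 1205Lu library.

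The genes of YAP and TEAD signalling had 12 tested promoter peaks, 3 higher in A375 and 1 higher in 1205Lu. Expression was called in the same direction for all 4, beside 933 of the 2550 genes with a called promoter peak in all. ANKRD1, a YAP target, had 212, 292 and 255 reads in A375 and 8, 6 and 13 in 1205Lu (2.11 ± 0.267), with mRNA at 19.4 ± 1.79 and 0.0686 ± 0.0686 CPM. CCN1, a secreted matrix protein and YAP target, had 171, 271 and 272 reads against 9, 16 and 17 (1.39 ± 0.258), with mRNA at 429 ± 11.1 and 57.4 ± 2.42 CPM. AJUBA, which binds the Hippo kinase LATS, was at 1.36 ± 0.375 at the promoter and 3.13 ± 0.0665 in expression. NF2, the Hippo pathway tumour suppressor merlin, was higher in 1205Lu, with 3, 2 and 2 reads in A375 against 23, 37 and 32 (-6.31 ± 0.376) and mRNA at 17.7 ± 0.437 and 234 ± 1.62 CPM. The promoter calls of CCN1 and AJUBA were lost when the test was run on peaks over IgG alone (0.85 and 0.82), that of CCN1 without replicate 1 of 1205Lu (0.96), and that of AJUBA with DESeq2 (1.09) and with A375 thinned to the 1205Lu totals (1.01).

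Of 9 tested promoter peaks of proteases and plasminogen factors, 6 were higher in 1205Lu and 1 in A375. Expression was called in the same direction for 6 of the 7, again beside 933 of 2550 in all. PLAT, the tissue plasminogen activator, had 22, 47 and 37 reads in A375 and 22, 64 and 49 in 1205Lu (-3.01 ± 0.261, and -0.2 without scaling, where the call was lost), and its mRNA was 77.5 ± 2.4 and 1010 ± 16.2 CPM. TIMP1, an inhibitor of matrix proteases, was at -1.75 ± 0.284 at its promoter (1.02 without scaling) and -2.48 ± 0.0351 in expression. MMP3, stromelysin, was the exception, with 33, 36 and 41 reads in A375 and 1, 2 and 1 in 1205Lu (2.05 ± 0.601) and mRNA at 28.6 ± 0.22 against 0.0407 ± 0.0059 CPM, a promoter call that was lost with DESeq2 (1.89) and over peaks above IgG alone (1.51). LAMA4, a laminin chain, had 2, 7 and 2 reads in A375 and 18, 25 and 19 in 1205Lu (-5.14 ± 0.41), with mRNA at 120.0 ± 4.24 and 940.0 ± 4.6 CPM. With 4 reads of IgG in 1205Lu, the LAMA4 peak did not stand over IgG there. Of the integrins, the promoter peak of ITGB5 was higher in 1205Lu (-1.18 ± 0.212, and 1.55 without scaling, with the call lost without replicate 1 of A375 and with the IgG offset, -0.94) and that of ITGA2 higher in A375 (1.61 ± 0.235).

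CDH2, the neural cadherin, had 41, 76 and 65 reads in A375 and 3, 1 and 1 in 1205Lu (2.44 ± 0.508), with mRNA at 259 ± 2.07 and 69.1 ± 2.03 CPM. VIM, the intermediate filament vimentin, and FN1, fibronectin, were called higher in 1205Lu at the promoter (-1.68 ± 0.226 and -1.09 ± 0.361, and 1.11 and 1.62 without scaling) and in expression (-2.71 and -3.39). Neither promoter peak stood over IgG in 1205Lu. That of FN1 held 8, 7 and 11 reads in the 1205Lu FRA1 libraries and 9 with IgG. In A375 it held 18, 31 and 31 reads and 5 with IgG. The promoter call of FN1 was lost with an offset for the IgG ratio of its stretch (-0.17), with total counts (-0.89) and without replicate 3 of 1205Lu (-0.84). Of 13 genes of ERK feedback, 2 had a promoter peak higher in 1205Lu, among them that of SPRY2, a feedback inhibitor (-1.45 ± 0.372, and 1.37 without scaling). The SPRY2 peak held 3, 20 and 17 reads in 1205Lu and 4 with IgG, and did not stand over IgG there. Its level was 15.2 ± 14.3 CPM in 1205Lu (SD, n = 2) and 7.01 ± 0.617 CPM in A375, so the 1205Lu libraries differed widely. SPRY2 mRNA was also higher in 1205Lu (-2.07 ± 0.046). FSCN1, which encodes the actin bundler fascin, had 145, 202 and 149 reads in A375 and 97, 136 and 98 in 1205Lu (-2.11 ± 0.179, and 0.62 without scaling), with mRNA at 109 ± 0.732 and 489 ± 5.52 CPM. With 26 reads of IgG in 1205Lu, the FSCN1 peak did not stand over IgG there. Its stretch had an IgG log2 ratio of -1.11, and with an offset for that ratio the promoter log2 fold was -1.0 and not called. Of 10 constitutive genes with a tested promoter peak, 4 were higher in 1205Lu, among them GAPDH of glycolysis (-1.19 ± 0.195, and 1.55 without scaling), and 1 was higher in A375, RPLP0 of the ribosome (1.37 ± 0.222). The call of GAPDH was lost with the IgG offset (-0.63) and that of RPLP0 over peaks above IgG alone (0.83).

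Most peaks lay away from promoters, so the balance of distal peaks was set beside expression. For each of 13421 genes, the called peaks 3 to 100 kb from a start were counted. The 192 genes with 6 or more A375-higher peaks in excess had a median expression log2 fold of 1.74, with 59.4% expressed higher in A375 and 5.21% higher in 1205Lu. The 232 genes with 6 or more 1205Lu-higher peaks in excess had a median of -1.21, with 6.03% and 57.3%. Between these ends the medians were ordered, at -0.54, -0.21, 0.11, 0.31 and 0.57 for an excess of 3 to 5 and of 1 or 2 for 1205Lu, equal numbers, and 1 or 2 and 3 to 5 for A375. The median IgG log2 ratio moved with these groups, from -0.53 to 0.56. Neighbouring genes share peaks, so these genes are not independent.

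IgG reads by chromosome moved with both measures. Each cell line had 1 IgG library. The share of its reads in consensus peaks that fell on a chromosome was taken as a rough guide to DNA content. These reads lie in the same peaks as the FRA1 folds, so IgG ratio and peak fold are not independent. Over 23 chromosomes, the log2 ratio of IgG shares and the median peak fold had r = 0.903, and the IgG ratio and the median expression fold had r = 0.808, as descriptions over chromosomes of the same libraries. On chromosome 18 the IgG ratio was 0.73, the median peak fold 1.12 and the median expression fold 0.33, and 45.6% of its peaks were higher in A375 against 11.8% in 1205Lu. Chromosome 7 had -0.7, -0.44 and -0.67, with 14.9% and 33.6%. Within stretches of 10 Mb whose IgG ratio was within 0.2 of 0, the order of the classes was as in all genes. There 44.9% of 247 genes with an A375-higher promoter peak were expressed higher in A375 and 10.9% higher in 1205Lu, and of 526 with a 1205Lu-higher peak 5.13% and 24.5%, with r = 0.359 over 3002 genes. The ends of the distal balance were at -1.62 and 1.06 there, with 42 genes each.

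**Figure D5:**
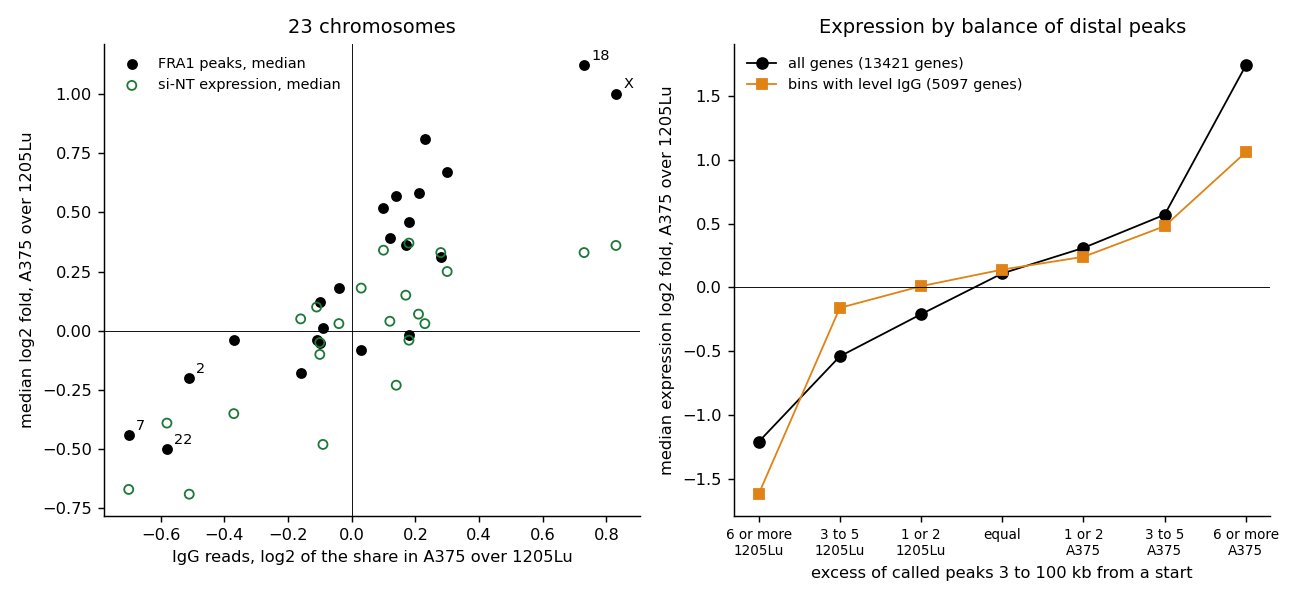
Left, median log2 fold of FRA1 peaks (filled) and of si-NT expression (open) on each of 23 chromosomes against the log2 ratio of IgG read shares in peaks, all A375 over 1205Lu. Right, median expression log2 fold by the excess of called peaks 3 to 100 kb from a gene's starts and the line they favour, for all genes (black, from -1.21 to 1.74) and for stretches with level IgG (orange, from -1.62 to 1.06).

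Finally, the genes with a differing promoter peak were followed in the cells with FRA1 silenced. FOSL1 mRNA was 422, 434 and 417 CPM (here of all gene counts, without TMM) with si-NT and 25.8, 25.8 and 26.0 with si-FRA1 in A375, and 481, 474 and 468 against 69.2, 70.1 and 64.0 in 1205Lu, so silencing was seen in each sample. In A375 cells, 2.51% of protein-coding genes were higher with si-NT and 2.78% lower, or 5.29% in all. Of 724 genes with an A375-higher promoter peak, 29 (4.01%) were higher with si-NT in A375 and 41 (5.66%) were lower. In 1205Lu cells 1.86% of protein-coding genes were higher with si-NT and 1.11% lower, or 2.97% in all. Of 1795 genes with a 1205Lu-higher promoter peak 35 (1.95%) were higher and 10 (0.557%) lower. In the other line, the A375-higher genes had 2.45% and 1.96% in 1205Lu cells and the 1205Lu-higher genes 2.46% and 1.66% in A375 cells. Among all genes with a tested promoter peak the shares were 2.27% and 1.89% in A375 and 1.68% and 0.879% in 1205Lu. The median log2 response was -0.01 and 0.0 in the A375-higher and 1205Lu-higher genes, and most of them passed the test in neither direction.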

How the data were processed

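FRA1 Cut&Run libraries of A375 and 1205Lu cells were compared over consensus peaks. Per the labels and the study's methods, the authors aligned Cut&Run reads to GRCh38 with Bowtie2 2.4.1, called peaks with MACS2 2.1.1.20160309 and joined them, and the values they deposited are raw read counts per peak. How samples entered the peak calling, singly or pooled, is not given in the sources used here. For RNA-seq, the authors trimmed reads with cutadapt 1.8.1, aligned them with STAR 2.7.7a and deposited RSEM 1.3.0 expected counts per gene (Gencode v30), which are whole numbers. Tool versions are from the submitters' processing notes.

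From these counts, edgeR 4.0.16 in R 4.3.3 was run with filterByExpr, TMM and the quasi-likelihood test, with Benjamini-Hochberg adjustment over all tested features. A feature was called at an adjusted p under 0.05 with a log2 fold beyond 1. The 1205Lu FRA1 replicates 2 and 3 were summed as 1 sample, so n is 3 for A375 and 2 for 1205Lu in peaks, and n is 3 in RNA-seq, where values are mean ± SD. Values beside log2 folds are SE. Peaks held 583750 to 5316527 reads in a FRA1 library, and gene counts summed to 20573412 to 32518903 in an RNA-seq sample. A promoter peak held a protein-coding transcript start or had its nearest edge within 3 kb of one. Starts were from Gencode v44, in which 99.4% of the protein-coding genes were found. The peak with the highest mean CPM stood for a gene. Motifs were exact matches on both strands within 100 bp of the centre. IgG libraries, 1 for each line, entered no test and gave a ratio of reads in consensus peaks, summed over stretches of 10 Mb or chromosomes. Shares have 95% Wilson intervals, and a group with 0 reads was set at 3 counts over the group. Scripts were tested on simulated data. DESeq2 1.42.0, other scalings, filters and left-out libraries were tried.

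Members and lists were chosen with earlier results of these data known. In each direction the text names the 8 peaks with the largest log2 fold that were called without scaling too, did not overlap between the lines, held 50 or more reads in each library of the higher line and stood over IgG there, with 1 peak for each gene. It names the 6 genes in each direction with the largest promoter fold that were called without scaling and also called in expression. Of the 46 list genes with a called promoter peak, 30 are named, PTPRC included, and were chosen after their values were seen, and 1 gene that stays in the counts is not reported here. PTPRC, SOX10 and the pigment and other cell type markers are named as checks of the cell type. Peak starts are printed as deposited. Columns of samples outside the series numbered 0.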

Additional observations from a re-analysis of the deposited data

How the results depend on the processing

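The scale between the lines was the main limit. Without scaling, 45679 peaks were higher in A375 and 3513 in 1205Lu, and with libraries scaled on peaks near background 36320 and 5238. Thinning A375 to the 1205Lu totals left 8313 peaks higher in A375, and testing peaks over IgG alone left 7889, from fewer reads and fewer peaks. For classes called without scaling, the A375-higher peaks had AP-1 in 30.6%, TEAD in 5.99% and a promoter position in 19.6%, and the 1205Lu-higher peaks had AP-1 in 14.8% and a promoter position in 7.63%. Read over the whole peak, AP-1 lay in 69.1% and 49.5%. With the adjusted p alone as the limit, 7082 genes were expressed higher in A375 and 7001 in 1205Lu.

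The correlation of promoter peaks and expression (0.428) was 0.462 for promoters of 1 kb, 0.37 after the IgG ratio was taken from both and 0.359 in stretches with level IgG, an alternative chosen after seeing the data. With each library left out in turn, 11487 to 13191 peaks were higher in A375 and 10333 to 12883 in 1205Lu, 3520 to 3577 and 3875 to 4124 genes were called at baseline, and the correlation was 0.413 to 0.433. For silencing this was also chosen after seeing the data and gave 460 to 509 genes higher and 433 to 493 lower with si-NT in A375, and 305 to 364 and 177 to 205 in 1205Lu.

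Promoter peaks that were higher in 1205Lu with TMM had the opposite sign without scaling for CD44 (1.15), AXL (1.69), FOSL2 (1.29), FOS (1.65), JUN (1.65), SPRY2 (1.37), TIMP1 (1.02), ITGB5 (1.55), VIM (1.11), FN1 (1.62), FSCN1 (0.62) and GAPDH (1.55). With libraries scaled on peaks near background this held for AXL (0.56), FOSL2 (0.14), FOS (0.5), JUN (0.51), SPRY2 (0.17), ITGB5 (0.42), FN1 (0.47) and GAPDH (0.4). Over all alternatives, 951 values of named peaks kept direction and call, 36 lost the call and 20 reversed, and 450 expression values kept both, with 1 call gained (RAB27A, -1.06, without replicate 2 of A375).

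Replicate numbers did not pair the samples (correlations of deviations from -0.0632 to 0.0243). With a replicate block and the 1205Lu replicates 2 and 3 as separate libraries, 13465 peaks were higher in A375 and 10332 in 1205Lu, against 13984 and 10500 for separate libraries without the block. With the block, 3390 and 3803 genes were called at baseline, and silencing called 466 and 466 genes of all kinds in A375 (471 and 468 without the block) and 328 and 182 in 1205Lu (350 and 186), so the block moved no count by over 1.5 times.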
